A study of Danio rerio with 11 samples.

Results

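The RNAs of 10 genes of the maternal Wnt and beta-catenin pathway were followed through RNA immunoprecipitation (RIP) of the cap-binding proteins eIF4E1b and eIF4E1c in zebrafish (Danio rerio) embryos. The members are the ligand wnt8a, the dishevelled genes dvl2 and dvl3a, the destruction complex genes axin1, gsk3ba and gsk3bb, the beta-catenin genes ctnnb1 and ctnnb2, and the Tcf genes tcf7l1a and tcf7l1b. They were taken by gene symbol and gave 11 Ensembl identifiers of the 32520 in the count tables, since wnt8a matched 2 identifiers. Embryos at the 8-cell stage carried a transgene for eIF4E1b or for eIF4E1c, members of the eIF4E family, each fused to 3xflag and sfGFP. In every group the transgene was driven by the actb2 (beta-actin) promoter, so the bait was made from a broadly active promoter in addition to the embryo's own protein. The tagged protein was pulled from the lysate with anti-GFP beads, and the RNA on the beads (RIP) and the total RNA of the lysate (input) were sequenced. RIP libraries numbered 3 for eIF4E1b and 2 for eIF4E1c, and input libraries 3 for each line. RIP and input libraries were made with different kits, so for any gene the effect of the kit and the effect of the pull-down cannot be told apart when RIP is set against input.

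In canonical Wnt signalling a Wnt ligand binds Frizzled and its co-receptor, Dishevelled is recruited, and the destruction complex that marks beta-catenin for degradation is held back. Axin is the scaffold of that complex and Gsk3 is the kinase that phosphorylates beta-catenin. Beta-catenin that escapes it enters the nucleus and binds Tcf/Lef proteins at target genes, and Tcf7l1 represses those genes when beta-catenin is absent. In the early zebrafish embryo the pathway first acts from RNAs and proteins laid down by the mother, where beta-catenin on the future dorsal side sets up the organizer. The zygotic genome is largely silent at the 8-cell stage, so the RNA in these embryos is mostly maternal. In whole embryos, fewer cells with a transcript and less of it per cell cannot be told apart.

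Total counts per library ranged from 6943631 to 13993294. The first eIF4E1c RIP library stood apart, with the lowest total and counts for 15114 genes, against 17520 in the second eIF4E1c RIP library and at least 18480 in every eIF4E1b RIP library. The 2 eIF4E1c RIP libraries were also the least alike of all replicate pairs, with a correlation of log2 counts of 0.831. All 14 maternal marker genes had over 3 counts in every library, with a summed level of 3884 to 9149 CPM (read counts scaled by the library's total count). The 15 zygotic target genes summed to 24.6 to 25.8 CPM in eIF4E1c RIP and to between 5.66 and 16.5 CPM in the other groups, and 10 genes of later tissues summed to at most 11.9 CPM. Of the zygotic targets, 4 were at 0 in every eIF4E1b RIP library and 6 in every eIF4E1c RIP library. Others were detected, with over 3 counts in every library of the group for 6 genes in eIF4E1b RIP and 2 in eIF4E1c RIP. Over all libraries ndr1 had 13 to 197 read counts and foxi1 4 to 76. The part of the zygotic targets in the differences between the RIPs was not tested. The bait genes followed the labels in the input, where eif4e1b had a log2 fold change of 1.87 ± 0.20 (SE) between eIF4E1b and eIF4E1c embryos (adjusted p = 7.66e-17) and eif4e1c one of -0.69 ± 0.15 (adjusted p = 0.000169). Between the RIPs eif4e1b was higher with eIF4E1b (1.55 ± 0.36, adjusted p = 0.000509), while eif4e1c did not separate the proteins (0.30 ± 0.43, adjusted p = 0.694). The labels do not say whether replicates came from separate clutches, so p-values measure the spread between these libraries.

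The 5 comparisons were made with the Wald test of DESeq2 on all genes, and a gene was called where its Benjamini-Hochberg adjusted p was under 0.005. Between the RIPs, 7 of the 11 identifiers could be tested, and 2 of them, ctnnb2 and tcf7l1a, were lower with eIF4E1b while 0 were higher. Of all 14127 genes tested there, 4.51% were lower and 3.44% higher. Between the inputs 0 of 8 tested identifiers were called in either direction by DESeq2 or edgeR. Among all genes 0.890% were higher and 1.44% lower there with DESeq2. Unadjusted p-values of DESeq2 were under 0.05 for tcf7l1b, dvl3a and gsk3ba. The share of all genes under that unadjusted threshold was not counted, so no excess can be read from these genes. In eIF4E1b RIP against eIF4E1b input, 2 of 8 tested identifiers were higher (ctnnb1 and dvl3a) and 3 were lower (ctnnb2, tcf7l1a and tcf7l1b), against 23.0% and 23.2% of all genes. In eIF4E1c RIP against eIF4E1c input, 0 of 8 were higher and 1 was lower (tcf7l1b), against 17.2% and 16.8% of all genes. For the ratio of RIP to input, tested as an interaction over the 11 libraries, 2 of 7 were lower with eIF4E1b (again ctnnb2 and tcf7l1a) and 0 higher, against 5.24% and 3.73% of all genes. In the comparisons of RIP with input the members' counts were close to what these percentages give for so few genes. With edgeR's quasi-likelihood test at the same threshold 0 members were called between the RIPs, 0 between the inputs and 1, tcf7l1a, for the ratio, against 0.0268%, 0.0963% and 1.56% of all genes in either direction. At an adjusted p under 0.05, eIF4E1c RIP against input called 3 members with DESeq2 (ctnnb1, tcf7l1a and tcf7l1b), against 47.7% of all genes. Counted by groups without overlap, 1 tested member was higher (dvl3a) and 2 were lower between the RIPs, where 24.7% and 20.2% of all genes did so, and 0 were higher and 3 lower (axin1, gsk3ba and tcf7l1b) between the inputs, where 12.6% and 13.3% did so. Scaling by total counts moved the median gene by -0.11 between the RIPs, -0.42 in eIF4E1b RIP against input and -0.23 for the ratio on the log2 scale. The split of higher against lower calls among all genes then became 280 to 581 between the RIPs, where it was 486 to 637, and 2884 to 5159 in eIF4E1b RIP against input, where it was 3933 to 3979. For the ratio it became 228 to 841, where it was 529 to 744.

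**Figure D1:**
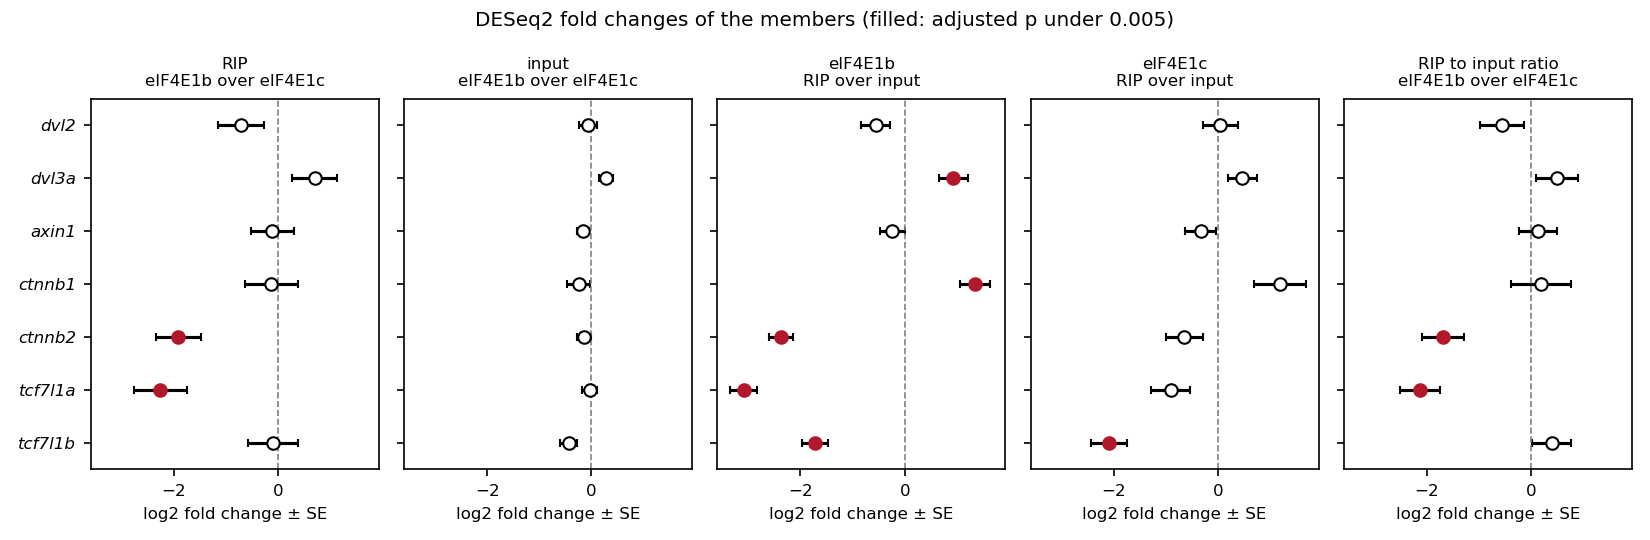
Log2 fold changes (x axis) of the 7 members with enough counts for all 5 comparisons, as points with 1 SE on each side, and filled where the DESeq2 adjusted p was under 0.005. ctnnb2 and tcf7l1a sit left of 0 between the RIPs, at -1.91 and -2.26, and close to 0 between the inputs, at -0.14 and -0.03.

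Between the RIPs only ctnnb2 of the beta-catenin genes was called, and in eIF4E1b RIP against input ctnnb1 was called higher and ctnnb2 lower. These genes were not tested against each other. ctnnb1 and ctnnb2 each encode a beta-catenin, the protein that both joins cadherins to the cytoskeleton and carries the Wnt signal into the nucleus, and in zebrafish ctnnb2 is the gene affected in the maternal mutant ichabod, which fails to form dorsal structures. ctnnb2 (ENSDARG00000023472) had 1094, 1041 and 727 normalized counts (read counts divided by a size factor for each library) in eIF4E1b RIP, against 4423 and 2451 in eIF4E1c RIP. The groups did not overlap, and the eIF4E1b value was 3.76-fold lower (log2 fold change -1.91 ± 0.44, SE, adjusted p = 0.000358). In input, ctnnb2 had 4250, 5176 and 5112 normalized counts in eIF4E1b embryos and 6081, 5001 and 5070 in eIF4E1c embryos, overlapping groups with a log2 fold change of -0.14 ± 0.14 (adjusted p = 0.634). Every RIP library except the first of eIF4E1c lay below all 6 input libraries. Against its own input ctnnb2 was 5.18-fold lower in eIF4E1b RIP (log2 fold change -2.37 ± 0.24, adjusted p = 2.05e-22). In eIF4E1c RIP the log2 fold change against input was -0.65 ± 0.36 (adjusted p = 0.130) and did not pass. Without the first eIF4E1c RIP library it was -1.09, in a fit where eIF4E1c RIP had no replicate. The difference in the ratio of RIP to input between the proteins was tested directly with all libraries and came to -1.70 ± 0.41 (adjusted p = 0.000586).

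ctnnb1 (ENSDARG00000014571) had 5998, 3821 and 2701 normalized counts in eIF4E1b RIP and 6138 and 2628 in eIF4E1c RIP. The RIP groups overlapped fully, with a log2 fold change of -0.13 ± 0.51 (adjusted p = 0.896) and a 95% interval of -1.13 to 0.86. In input it had 1839, 1557 and 1457 normalized counts in eIF4E1b embryos, against 2773, 1353 and 1663 in eIF4E1c embryos, a log2 fold change of -0.24 ± 0.22 (adjusted p = 0.614). All 3 eIF4E1b RIP libraries lay above all eIF4E1b input libraries, and ctnnb1 was 2.53-fold higher in that RIP (log2 fold change 1.34 ± 0.29, adjusted p = 1.10e-05). With scaling by total counts it was 0.96 (adjusted p = 0.00787), which did not pass. In eIF4E1c RIP against input the log2 fold change was 1.19 ± 0.49 (adjusted p = 0.0344), short of the threshold. The second eIF4E1c RIP library overlapped the input range. Without it the log2 fold change was 1.69, in a fit where eIF4E1c RIP had no replicate. The ratio of RIP to input did not separate the proteins for ctnnb1, at 0.18 ± 0.58 (adjusted p = 0.872).

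Of the Tcf genes only tcf7l1a was called between the RIPs, and these genes were not tested against each other either. tcf7l1a and tcf7l1b encode the Tcf7l1 (Tcf3) repressors, and tcf7l1a is the gene of the zebrafish headless mutant, in which Wnt targets are no longer held silent in the forming head. tcf7l1a (ENSDARG00000038159) had 73.6, 63.2 and 67.1 normalized counts in eIF4E1b RIP, against 391 and 234 in eIF4E1c RIP. The groups did not overlap, and the value was 4.79-fold lower with eIF4E1b, with a log2 fold change of -2.26 ± 0.51 and an adjusted p of 0.000275. The inputs overlapped, with 558, 565 and 578 normalized counts in eIF4E1b embryos and 582, 530 and 643 in eIF4E1c embryos (log2 fold change -0.03 ± 0.15, adjusted p = 0.939). tcf7l1a was 8.49-fold lower in eIF4E1b RIP than in eIF4E1b input (log2 fold change -3.09 ± 0.26, adjusted p = 3.47e-32). In eIF4E1c RIP it stood at -0.91 ± 0.37 against input (adjusted p = 0.0314), which did not pass although both RIP libraries lay below the 3 inputs. Without the first eIF4E1c RIP library the log2 fold change was -1.28, with no replicate left in that group. The difference in ratio was -2.14 ± 0.38 (adjusted p = 1.39e-06).

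tcf7l1b (ENSDARG00000007369) had 192, 193 and 212 normalized counts in eIF4E1b RIP and 154 and 252 in eIF4E1c RIP, so that the eIF4E1b values fell between those of eIF4E1c. Its log2 fold change between the RIPs was -0.10 ± 0.48 (adjusted p = 0.921). In input it had 652, 737 and 542 normalized counts in eIF4E1b embryos and 904, 907 and 807 in eIF4E1c embryos. These input groups did not overlap, but the difference of -0.43 ± 0.16 on the log2 scale had an adjusted p of 0.0976. It was lower in both RIPs than in their inputs, by 3.30-fold with eIF4E1b (log2 fold change -1.72 ± 0.25, adjusted p = 1.32e-11) and by 4.27-fold with eIF4E1c (-2.09 ± 0.35, adjusted p = 2.53e-08). Of all 14907 genes tested in both of those comparisons, 13.5% were called lower in both. The ratio of RIP to input was not separable between the proteins, at 0.39 ± 0.37 (adjusted p = 0.506).

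The calls for ctnnb2 and tcf7l1a between the RIPs rest on few libraries. edgeR's quasi-likelihood test gave nearly the same fold changes with adjusted p-values of 0.0159 for ctnnb2 and 0.0232 for tcf7l1a, neither past 0.005. Neither gene passed without the second eIF4E1b RIP library (adjusted p = 0.00698 for ctnnb2 and 0.0152 for tcf7l1a) or without the third (0.0123 and 0.0116). Leaving out the first eIF4E1c RIP library left no replicate in that group. The log2 fold changes were then -1.44 for ctnnb2 and -1.86 for tcf7l1a. The log2 fold change stayed between -2.28 and -1.44 for ctnnb2 and between -2.59 and -1.86 for tcf7l1a over the 13 alternatives run. For the ratio of RIP to input, tcf7l1a passed in all 18 alternatives (highest adjusted p = 0.00317). ctnnb2 did not pass there with edgeR (adjusted p = 0.0125), without the second or the third eIF4E1b input library (0.00636 and 0.00570) or without the third eIF4E1c input library (0.00502). The fit of the ratio estimates each gene's spread over all 11 libraries, inputs included. Its SE was 0.38 for tcf7l1a and 0.41 for ctnnb2, against 0.51 and 0.44 between the RIPs. The ratio holds the RIP difference and the inputs' error as well, so its smaller SE does not make it the firmer result.

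**Figure D2:**
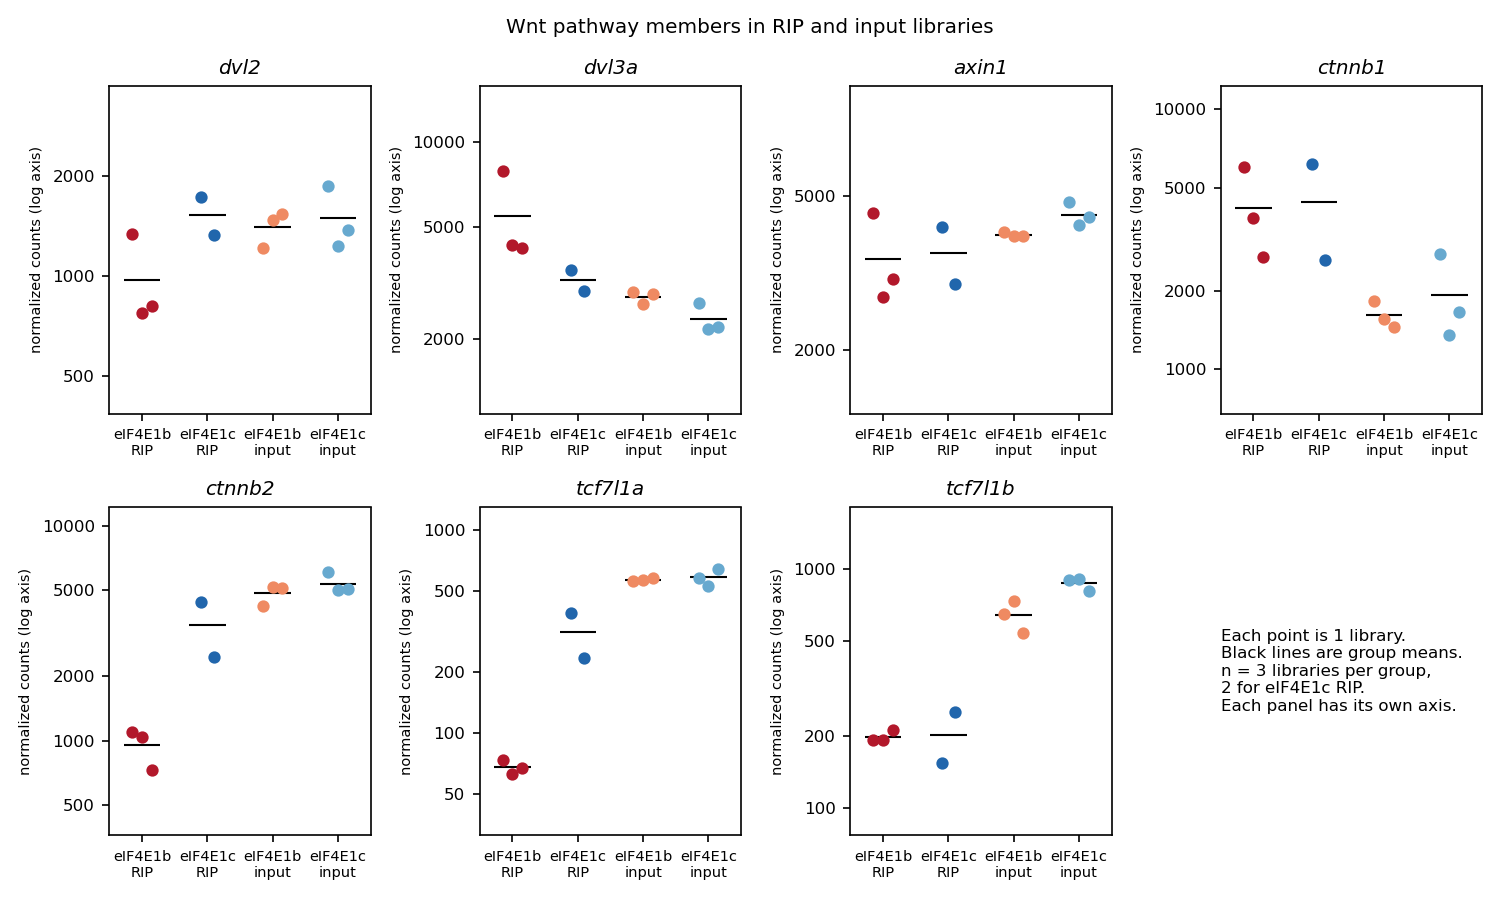
Normalized counts (y axis, logarithmic, with its own range for each gene) of 7 members in each of the 11 libraries, with points for libraries and black lines for group means. The eIF4E1b RIP points of ctnnb2 (727 to 1094) and tcf7l1a (63.2 to 73.6) lie below all other libraries, while those of ctnnb1 and dvl3a lie above the eIF4E1b input points.

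The dishevelled genes encode the scaffold proteins that pass the signal from the receptor to the destruction complex. dvl2 (ENSDARG00000056184) had 1334, 771 and 810 normalized counts in eIF4E1b RIP and 1727 and 1327 in eIF4E1c RIP, which touched only through the first eIF4E1b library. Its log2 fold change was -0.71 ± 0.43 (adjusted p = 0.255). In input it had 1208, 1473 and 1535 normalized counts in eIF4E1b embryos, against 1858, 1230 and 1374 in eIF4E1c embryos, a log2 fold change of -0.07 ± 0.17 (adjusted p = 0.889). In eIF4E1b RIP against input its log2 fold change was -0.56 ± 0.27 (adjusted p = 0.0649), and without the first eIF4E1b RIP library it was called lower at -0.85 (adjusted p = 4.60e-05), as it was with scaling by total counts (-0.95, adjusted p = 0.00334).

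dvl3a (ENSDARG00000015707) had 7894, 4320 and 4195 normalized counts in eIF4E1b RIP, against 3515 and 2955 in eIF4E1c RIP. The groups did not overlap, but the log2 fold change of 0.70 ± 0.44 had an adjusted p of 0.269. In input there were 2923, 2651 and 2885 normalized counts in eIF4E1b embryos and 2671, 2173 and 2197 in eIF4E1c embryos (0.28 ± 0.13, adjusted p = 0.221). All 3 eIF4E1b RIP libraries were above all inputs, and dvl3a was 1.90-fold higher in eIF4E1b RIP than in its input (log2 fold change 0.93 ± 0.27, adjusted p = 0.00165). That call was lost with edgeR's quasi-likelihood test (adjusted p = 0.00870) and without any 1 of the eIF4E1b input libraries (adjusted p from 0.0120 to 0.0214), and with scaling by total counts (log2 fold change 0.54, adjusted p = 0.123). In eIF4E1c RIP against input it had a log2 fold change of 0.46 ± 0.28 (adjusted p = 0.164).

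axin1 (ENSDARG00000102964), whose protein is the scaffold that limits how much destruction complex forms, passed in no comparison. It had 4506, 2734 and 3048 normalized counts in eIF4E1b RIP and 4147 and 2950 in eIF4E1c RIP (log2 fold change -0.11 ± 0.42, adjusted p = 0.893). Its inputs were 4035, 3938 and 3921 normalized counts in eIF4E1b embryos and 4800, 4198 and 4398 in eIF4E1c embryos. Those groups did not overlap, but the log2 fold change was -0.16 ± 0.11 (adjusted p = 0.475). Its largest difference was that of eIF4E1c RIP against input, at -0.33 ± 0.29 (adjusted p = 0.370).

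The gsk3b genes had few counts, and gsk3bb had at most 3 in all libraries except the second eIF4E1c input. gsk3ba (ENSDARG00000017803) had 10, 7 and 9 read counts in eIF4E1b RIP, 0 and 31 in eIF4E1c RIP, 7, 9 and 6 in eIF4E1b input and 12, 18 and 22 in eIF4E1c input. The 0 came from the shallowest library, where it allows a level of up to 6.41 normalized counts, and the 31 of the other eIF4E1c RIP library was the highest value of any library. Between the inputs the groups did not overlap, at a log2 fold change of -1.44 ± 0.73 (adjusted p = 0.255). gsk3bb (ENSDARG00000052468) had 0 counts in all 5 RIP libraries, 1, 2 and 2 in eIF4E1b input and 0, 14 and 3 in eIF4E1c input, and could not be tested in any comparison. A further 2 identifiers carry the symbol GSK3A, the gene of the related kinase Gsk3a, and were chosen for naming after their values were seen. ENSDARG00000015681 had 609, 673 and 599 normalized counts in eIF4E1b RIP and 1090 and 1062 in eIF4E1c RIP, against 2119, 2691 and 3027 in eIF4E1b input and 1925, 2293 and 3242 in eIF4E1c input. It was lower in both RIPs than in their inputs, by 4.25-fold with eIF4E1b (adjusted p = 1.11e-18) and by 2.31-fold with eIF4E1c (adjusted p = 0.00149, lost with edgeR at 0.0163), and the RIPs themselves did not separate it (log2 fold change -0.84 ± 0.38, adjusted p = 0.106). ENSDARG00000029501 had 41.8, 20.4 and 21.3 normalized counts in eIF4E1b RIP and 96.2 and 79.8 in eIF4E1c RIP, against 310 to 461 in the 6 inputs. This identifier was called lower in both RIPs than in their inputs, by 15.0-fold with eIF4E1b and by 4.19-fold with eIF4E1c. The eIF4E1c call was lost with edgeR (adjusted p = 0.00528). Between the RIPs it did not pass with DESeq2 (log2 fold change -1.71 ± 0.72, adjusted p = 0.0754). Its ratio of RIP to input was lower with eIF4E1b by 3.51-fold (log2 difference -1.81 ± 0.49, adjusted p = 0.00277), a call lost with edgeR (adjusted p = 0.0281).

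The ligand wnt8a, which in zebrafish later patterns the mesoderm, gave almost no counts. ENSDARG00000052910 had 1 read count in the first eIF4E1b RIP library and 1 in each of the second and the third eIF4E1b input libraries, and 0 in the other 8. ENSDARG00000078507 had 0 in all 11 libraries. A count of 0 allows up to 0.432 CPM in the shallowest library and at most 0.349 CPM in the others, so the level of wnt8a was not detectable at this depth and no fold is given.

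The share of counts between related genes does not depend on the scaling between libraries, because both counts come from the same library. There were 5.48, 3.67 and 3.71 counts of ctnnb1 for each count of ctnnb2 in eIF4E1b RIP, against 1.39 and 1.07 in eIF4E1c RIP. The inputs had 0.433, 0.301 and 0.285 in eIF4E1b embryos and 0.456, 0.271 and 0.328 in eIF4E1c embryos. As a share of both beta-catenin genes, ctnnb1 made up 80.6% ± 3.4 (SD, n = 3) with eIF4E1b, against 54.9% ± 4.51 (SD, n = 2) with eIF4E1c. In the inputs, which were made with another kit, that share was 25.2% ± 4.39 in the eIF4E1b line and 25.8% ± 5.10 in the eIF4E1c line (SD, n = 3 each). The RIP groups overlapped neither each other nor the inputs. For the dishevelled genes there were 5.92, 5.60 and 5.18 counts of dvl3a for each of dvl2 in eIF4E1b RIP, against 2.03 and 2.23 in eIF4E1c RIP. In input the ratio was 2.42, 1.80 and 1.88 in eIF4E1b embryos and 1.44, 1.77 and 1.6 in eIF4E1c embryos. Here eIF4E1b RIP lay above all 6 inputs. Both eIF4E1c RIP libraries lay above the 3 eIF4E1c inputs, and within the range of the 6 inputs only because of the first eIF4E1b input (2.42). For the Tcf genes there were 0.384, 0.328 and 0.317 counts of tcf7l1a for each of tcf7l1b in eIF4E1b RIP, 2.54 and 0.930 in eIF4E1c RIP, 0.856, 0.767 and 1.07 in eIF4E1b input and 0.644, 0.585 and 0.797 in eIF4E1c input. The eIF4E1b RIP libraries were lowest, and the 2 eIF4E1c RIP libraries differed from each other more than the inputs did. These ratios are a description, with no test. How the counting treated reads that match both genes of a pair is not given in the sources used here, and such reads could be split between related genes.

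**Figure D3:**
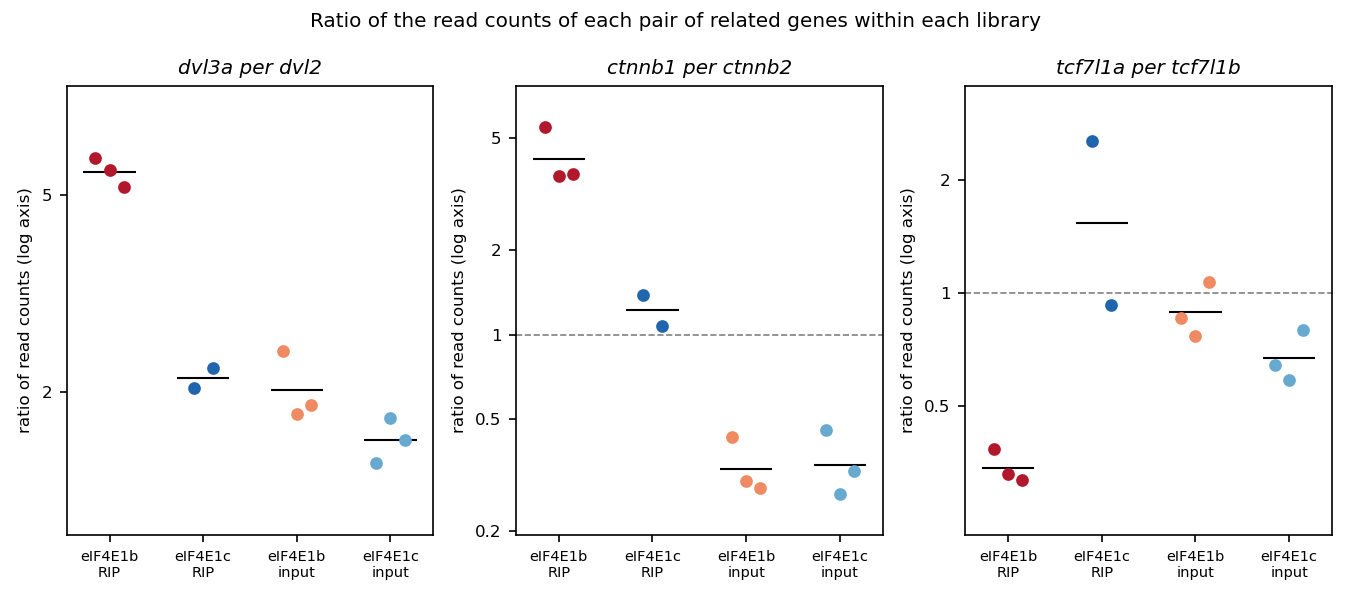
Ratio of read counts (y axis, logarithmic) of dvl3a to dvl2, ctnnb1 to ctnnb2 and tcf7l1a to tcf7l1b in each library, with points for libraries, black lines for geometric means and a dashed line at equal read counts where the axis reaches it, which is not equal abundance because gene length was not used. The 3 eIF4E1b RIP libraries are highest for ctnnb1 per ctnnb2 (3.67 to 5.48) and dvl3a per dvl2 (5.18 to 5.92), and lowest for tcf7l1a per tcf7l1b (0.317 to 0.384).

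The order of the group means, from high to low, ran eIF4E1c input, eIF4E1b input, eIF4E1c RIP and eIF4E1b RIP for ctnnb2, tcf7l1a, tcf7l1b and axin1. The difference between the inputs passed the test for none of them, that between the RIPs passed for ctnnb2 and tcf7l1a but not for tcf7l1b and axin1, and eIF4E1c RIP was not tested against eIF4E1b input. For dvl3a the order was reversed, with no called difference between the RIPs or between the inputs, and for dvl2 it began with eIF4E1c RIP and went on with the inputs of eIF4E1c and eIF4E1b and then eIF4E1b RIP, and no test between these neighbours passed. For ctnnb1 the means of the RIPs (4173 ± 1677, SD, n = 3, with eIF4E1b and 4383 ± 2482, SD, n = 2, with eIF4E1c) lay above those of the inputs without differing from each other beyond their spread. Across the 11 libraries the log2 values of ctnnb2 and tcf7l1a moved closely together (Pearson r = 0.98). Those of ctnnb1 went with dvl3a (r = 0.78) and against tcf7l1b (r = -0.82). Among 9913 genes with a mean of at least 100 normalized counts, SMARCC1 was one of those most like tcf7l1a (r = 0.995), and those most like ctnnb2 were NUP98 (0.993) and PCSK6 (0.991). For ctnnb1 they were ENSDARG00000099322 (0.988) and GPAT2 (0.971), for tcf7l1b mpzl1l and dlg1b (both 0.986), for dvl3a KLHL18 (0.952), for axin1 ENSDARG00000026048 (0.946) and for dvl2 RNPEPL1 (0.938). The points of these correlations share the kit, the bait and the group, so they describe the pattern over 4 groups.

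Other genes of the pathway were taken from a list of 162 symbols, of which 104 matched an identifier. Between the RIPs 68 could be tested, and 3 (4.41%) were higher and 5 (7.35%) lower with eIF4E1b, where 3.44% of all genes were higher and 4.51% lower. The list's median log2 fold change was -0.29, against -0.01 over all genes tested. The clearest were wls and ryk. wls, whose protein carries Wnt ligands to the cell surface, had 97.2, 155 and 141 normalized counts in eIF4E1b RIP, against 603 and 665 in eIF4E1c RIP (log2 fold change -2.34 ± 0.45, adjusted p = 1.13e-05). ryk, a receptor-like kinase that binds Wnt proteins, had 1756, 1206 and 2039 normalized counts in eIF4E1b RIP, against 252 and 374 in eIF4E1c RIP (log2 fold change 2.34 ± 0.43, adjusted p = 5.18e-06). The wls and ryk groups did not overlap. Leaving out each eIF4E1b RIP library in turn kept both calls (highest adjusted p = 0.00128 for wls and 0.00138 for ryk). Without the first eIF4E1c RIP library the log2 fold changes were -2.42 for wls and 2.08 for ryk, with no replicate left in that group. The others higher with eIF4E1b were ppp2r5ea (1.51 ± 0.39, adjusted p = 0.00195), a regulatory subunit of the phosphatase PP2A, and dact2 (2.84 ± 0.79, adjusted p = 0.00423), a binding partner of Dishevelled. dact2 was uneven within a group, with 539 and 497 normalized counts in the first 2 eIF4E1b inputs and 66.8 in the third. The eIF4E1c inputs had 52.7, 57.8 and 76.3, so the first 2 eIF4E1b lysates already held more dact2. In RIP it had 242, 145 and 46.8 with eIF4E1b, in the order of their inputs, and 12.8 and 25.1 with eIF4E1c. For the ratio of RIP to input dact2 was not among the called genes.

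The remaining genes that were lower with eIF4E1b were lef1, usp34, hwa and ybx1. lef1, a Tcf/Lef factor that acts with beta-catenin, had 286, 194 and 176 normalized counts in eIF4E1b RIP, against 2326 and 388 in eIF4E1c RIP (-2.70 ± 0.64, adjusted p = 0.000560). hwa (huluwa), the maternal membrane protein that in zebrafish promotes the loss of Axin on the dorsal side, had 40.9, 74.4 and 59.6 normalized counts in eIF4E1b RIP, against 547 and 117 in eIF4E1c RIP (-2.57 ± 0.67, adjusted p = 0.00213). Both were far higher in the first eIF4E1c RIP library than in the second. Without the first, the log2 fold changes were -0.90 for lef1 and -1.09 for hwa, with no replicate left in that group. usp34, a deubiquitinase that acts on Axin, had a log2 fold change of -2.73 ± 0.68 (adjusted p = 0.00119), and of -1.68 without that library. The calls of lef1 and usp34 passed in 7 of 13 alternatives, that of hwa in 6, and those of dact2 and ppp2r5ea in 5. For ppp2r5ea the call was lost whichever eIF4E1b RIP library was left out (adjusted p from 0.0114 to 0.0332). ybx1, an RNA-binding protein of the early embryo, had a log2 fold change of -1.37 ± 0.39 (adjusted p = 0.00482), a call that passed in 3 of 13 alternatives (highest adjusted p = 0.0728). With edgeR's test 0 of 69 list genes passed between the RIPs. Between the inputs 1 of 69 was called, axin2, an Axin made in response to Wnt signalling, with 1255, 1222 and 1439 normalized counts in eIF4E1b embryos and 671, 733 and 1009 in eIF4E1c embryos (0.71 ± 0.18, adjusted p = 0.00290). Of all genes 0.890% were higher and 1.44% lower there, and the axin2 call passed in 6 of 13 alternatives (highest adjusted p = 0.492) and not with edgeR (0.0641).

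**Figure D4:**
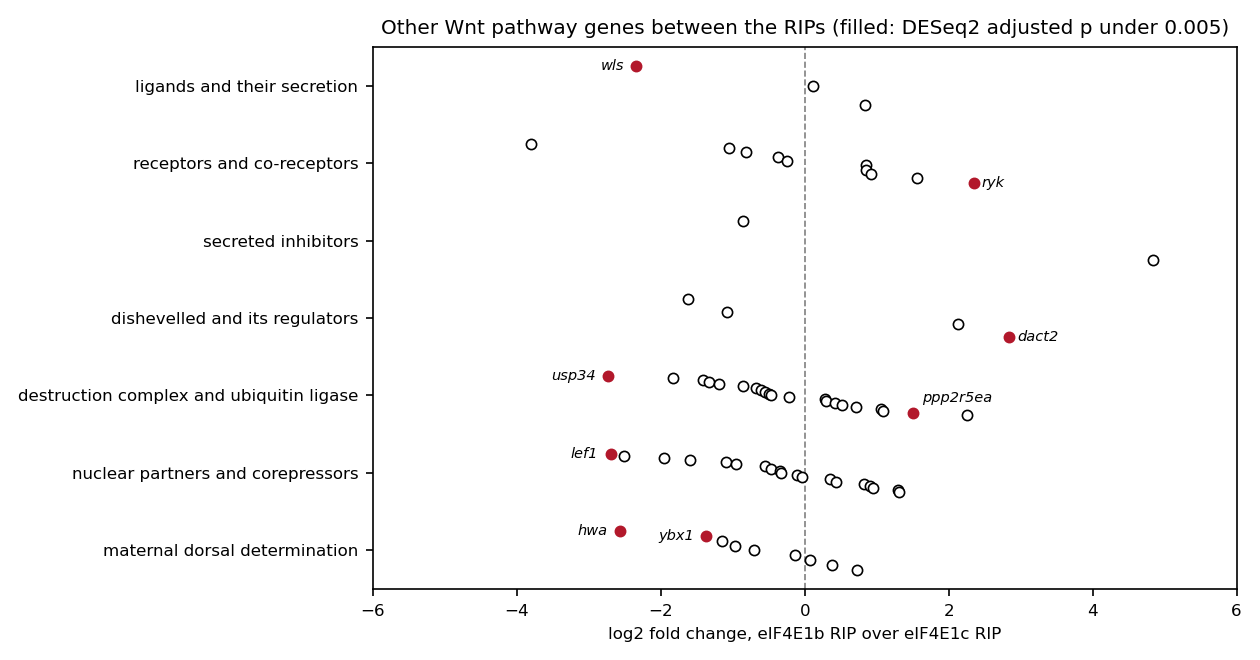
Log2 fold change of eIF4E1b RIP over eIF4E1c RIP (x axis) for the 68 tested genes of the pathway list by role (rows), with filled, named points where the DESeq2 adjusted p was under 0.005. The 8 called genes fall in 6 of the 7 roles, with ryk, ppp2r5ea and dact2 to the right of 0 and wls, lef1, usp34, hwa and ybx1 to the left.

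Set against input, 9 of 73 tested list genes were higher and 32 lower in eIF4E1b RIP (12.3% and 43.8%), where 23.0% and 23.2% of all genes were. Their median log2 fold change was -0.51, against 0.05 over all genes. In eIF4E1c RIP 4 of 70 were higher and 16 lower (5.71% and 22.9%), where 17.2% and 16.8% of all genes were, with a median of -0.59 against 0.00. The co-receptor lrp6 was among the lowest in both RIPs, with 11.8, 7.14 and 16.0 normalized counts in eIF4E1b RIP and 12.8 and 32.5 in eIF4E1c RIP, against 257, 310 and 294 in eIF4E1b input and 368, 220 and 338 in eIF4E1c input. Its log2 fold changes were -4.65 ± 0.39 with eIF4E1b (adjusted p = 1.01e-31) and -3.69 ± 0.54 with eIF4E1c (adjusted p = 1.64e-10). usp34 (-5.30 ± 0.33 with eIF4E1b and -3.03 ± 0.51 with eIF4E1c) and caprin2 (-2.56 ± 0.28 with eIF4E1b and -2.22 ± 0.26 with eIF4E1c), an RNA-binding protein that promotes Wnt signalling, were lower in both as well. So were znrf3, a ubiquitin ligase that removes Frizzled (-2.12 ± 0.30 with eIF4E1b and -2.96 ± 0.38 with eIF4E1c), the kinase gene csnk1g1 (-2.58 ± 0.22 with eIF4E1b and -1.47 ± 0.29 with eIF4E1c) and the demethylase gene kdm2aa (-2.69 ± 0.28 with eIF4E1b and -1.51 ± 0.47 with eIF4E1c, where the eIF4E1c call was lost with edgeR at an adjusted p of 0.0244). apc2, a scaffold of the destruction complex, was lower with eIF4E1b (-2.44 ± 0.42), and had 0 and 10.2 normalized counts in eIF4E1c RIP, against 206, 106 and 185 in eIF4E1c input. With so few counts its fitted log2 fold change with eIF4E1c ran from -8.70 to -3.98 over 13 alternatives, and the call was lost with edgeR (adjusted p = 0.0105). In the other direction ppp2cb, a catalytic subunit of PP2A, had 8782, 12675 and 11906 normalized counts in eIF4E1b RIP and 5317 and 9567 in eIF4E1c RIP, against 830 to 1272 in the 6 inputs. rbx1, the RING subunit of cullin ubiquitin ligases, was higher by 2.44 ± 0.30 with eIF4E1b and by 2.84 ± 0.37 with eIF4E1c on the log2 scale, and nlk1, a kinase that acts on Tcf/Lef factors, by 2.59 ± 0.23 with eIF4E1b and 1.39 ± 0.28 with eIF4E1c. The higher genes also included ppp2r5ea (2.19 ± 0.24) and tob1a (1.64 ± 0.22) with eIF4E1b and skp1 (0.96 ± 0.29) with eIF4E1c. With eIF4E1c the skp1 call passed in 6 of 13 alternatives (highest adjusted p = 0.0984) and the nlk1 call in 9 of 13 (0.0227).

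The ratio of RIP to input called 3 of 66 list genes higher with eIF4E1b (ryk, ppp2r5ea and nlk1) and 6 lower (wls, skp1, hwa, lef1, ybx1 and usp34), which is 4.55% and 9.09%, where 3.73% of all genes were higher and 5.24% lower. ryk had the largest gain, at 2.45 ± 0.40 (adjusted p = 7.35e-08), and its 3 eIF4E1b RIP libraries lay above the eIF4E1b inputs (952, 950 and 1091 normalized counts) while both eIF4E1c RIP libraries lay below the eIF4E1c inputs (1200, 929 and 976). wls had a difference of -2.06 ± 0.36 (adjusted p = 8.02e-07). skp1, an adaptor of the ubiquitin ligase that takes up phosphorylated beta-catenin, had one of -1.38 ± 0.31 (adjusted p = 0.000198). With the replicate number as a block the counts were 2 higher and 3 lower of 62, and nlk1 (adjusted p = 0.0100), hwa (0.0139), lef1 (0.0104) and ybx1 (0.0248) did not pass. The ybx1 call passed in 4 of 18 alternatives. Without the first eIF4E1c RIP library the log2 difference was -1.39 for hwa and -0.93 for lef1, with no replicate left in that group. Of these 9 genes, ryk and wls also passed with edgeR's test (adjusted p = 0.00220 and 0.00343).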

How the data were processed

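RNA was sequenced from 8-cell zebrafish embryos as RIP libraries (kit: SMARTer Ultra Low RNA) and as input libraries (kit: SMARTer Stranded, with Ribo-Zero). The authors deposited raw read counts per Ensembl gene, with 32520 identifiers in each library and a symbol for 29201. The submitters' processing notes list Trim Galore 0.5.0, Bowtie2 2.3.4.1, featureCounts (Subread 1.6.2), DESeq2 1.18.1, R 3.4.1 and GRCz11. Which annotation release was counted, whether strand was used and what became of reads matching several genes are not given in the sources used here.

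Counts were tested with DESeq2 1.42.0 in R 4.3.3 (Wald test with its default scaling and filtering, fold changes not shrunken, adjusted p under 0.005, after the P value threshold the study gives for its RIP comparison), on all genes, with the script tested on simulated data. Normalized counts come from size factors over the 11 libraries, and because no gene lengths were used, a ratio of the counts of related genes is read only between libraries and not as a ratio of their abundance. Alternatives were edgeR 4.0.16 (quasi-likelihood test, TMM), TMM and total count scaling, a filter of at least 10 counts in 2 libraries, 1 fit of all 11 libraries, an adjusted p under 0.05, a replicate block and leaving out each library. Leaving out an eIF4E1c RIP library left that group with no replicate, so such fits hold no spread between eIF4E1c RIP libraries. Replicate numbers came from the titles. The deposited counts of the second eIF4E1c RIP library carry the number 3 in their name. Same-numbered eIF4E1b RIP and input libraries deviated together (correlations of 0.448, 0.293 and 0.460 over 9913 genes), so these numbers were taken to pair the libraries. Floors of 3 counts cover counting error only. Total counts per library are given above, and the shallowest library sets the highest floor.

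The members and lists were chosen with earlier results of these data known. The text names all members, and of the pathway list up to 5 genes per direction and comparison among those past the threshold, ordered by adjusted p. Genes named by that rule in 1 comparison are in places also given in another, so more than 5 can appear there. wnt8a, gsk3ba, dvl3a and tcf7l1a were matched through upper-case symbols, RefSeq synonyms or the study's table of identifiers. The match of dvl3a was by elimination, because another identifier with the symbol DVL3 is named dvl3b by the study. For each member the genes with the highest correlation over the 11 libraries were looked up, and 1 of them is not reported here.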

Additional observations from a re-analysis of the deposited data

Results flagged for a closer look

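The ratio of RIP to input differed between the proteins by the interaction test for ctnnb2, at -1.70 on the log2 scale, and for tcf7l1a, at -2.14. That test estimates each gene's spread over all 11 libraries, inputs included. Both genes were called lower in eIF4E1b RIP than in its input. In eIF4E1c RIP both libraries also lay below the 3 inputs for each gene, at log2 fold changes of -0.65 for ctnnb2 (adjusted p = 0.130) and -0.91 for tcf7l1a (adjusted p = 0.0314) with DESeq2, which did not pass. Without the first eIF4E1c RIP library the log2 fold changes were -1.09 and -1.28, with no replicate left in that group. In both cases the 3 eIF4E1b RIP libraries lay below the 2 eIF4E1c RIP libraries, and the difference rests on those 2, of which the first had the fewest counts. The part of that library in the result was measured only by leaving it out, which left no replicate in eIF4E1c RIP. The log2 difference in ratio was then -1.23 for ctnnb2 and -1.75 for tcf7l1a.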

How the results depend on the processing

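No result changed direction while called in any alternative. Members called between the RIPs numbered 2, and became 0 with edgeR, 0 with a replicate block, 1 with the block when the second eIF4E1c RIP library was given number 3 (chosen after seeing the data), and 0 to 2 with a library left out. All genes called between the RIPs numbered 1123, and became 4 with edgeR, 3162 in 1 fit of all libraries, 447 with the block, 484 with the renumbered block, 445 to 2169 with a library left out and 2617 at an adjusted p under 0.05. Between the inputs 356 genes became 14 with edgeR, 109 in 1 fit of all libraries, 210 to 315 with a library left out and 869 at 0.05. For eIF4E1c RIP against input, 5138 genes became 2345 with edgeR, 2844 with the block, 3045 with the renumbered block and 3082 to 6568 with a library left out, and the 1 member became 3 with total count scaling, 2 in 1 fit of all libraries, 1 to 3 with a library left out and 3 at 0.05. For eIF4E1b RIP against input, 7912 genes became 6485 to 8239 and the 5 members 4 to 6 with a library left out. For the ratio, 1273 genes became 254 with edgeR, 735 to 2800 with a library left out and 2805 at 0.05, and the 2 members became 1 with edgeR and 1 to 2 with a library left out. The replicate block lowers the residual degrees of freedom. Where it was taken to pair libraries, in eIF4E1b RIP against input, it called 5 members and changed no member's call. For the ratio it called 880 genes and 2 members. That fit blocked the libraries of both proteins by number, although only those of eIF4E1b were taken to be paired. Elsewhere no pairing was taken to hold. Correlations of deviations for the same number were 0.0771 and 0.0420 between the RIPs and -0.0157, -0.0776 and 0.108 between the inputs. For eIF4E1c RIP and input they were 0.223 and 0.0773. The second eIF4E1c RIP library had a correlation of 0.238 with the third eIF4E1c input, higher than with the second. With 2 eIF4E1c RIP libraries the deviations mirror each other, so their pairing with the inputs is not settled. Of the values in other settings, 495 kept their side of the threshold, 8 came past it and 21 no longer passed. Fits with no replicate of eIF4E1c RIP are among those counted. The causes of these changes were not tested. The wnt8a identifiers had at most 1 read count in any library. gsk3bb had at most 3 in all libraries except the second eIF4E1c input, where it had 14.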
